A study of Mus musculus with 14 samples.

Results

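Mouse epiblast stem cells (EpiSCs) were compared with embryonic stem cells (ESCs) kept in serum and LIF and sorted as GFP-positive and RFP-negative. The arrays were chosen by their sample titles, 2 for each side, and are 4 of the 14 in the series. The ESCs came from a blastocyst line, strain C57/B6, that carries a pair of Oct4 transgenes. O4-DE-GFP drives GFP from the distal enhancer of the Oct4 gene, Pou5f1. O4-PE-RFP drives tdTomato from an Oct4 fragment that lacks this enhancer and keeps the proximal enhancer and promoter. The EpiSCs, also C57/B6, were derived from epiblasts of embryonic day 6.5 for the array of replicate 1. The label of replicate 2 gives day 6.6, and since other numbers in the labels also run up from sample to sample it was not read as another stage. No reporter, sort gate or culture medium is given for the EpiSCs. Cell state, line, culture and transgenes therefore cannot be told apart in this comparison. Epiblast-like cells (EpiLCs), sorted as GFP-negative and RFP-positive from the double-reporter line, served as another post-implantation-like state. RFP-positive ESCs of that line and ESCs of an O4-DE-GFP line without the RFP transgene, both in serum and LIF, served as other references, and mouse embryonic fibroblasts (MEFs) as a check on fibroblast genes, with 2 arrays each. Nothing in the labels says that the arrays of a group came from separate cultures. P-values therefore reflect array-to-array spread alone, pooled over all 7 groups, and that spread could be technical.

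ESCs resemble the epiblast before implantation and are held in this naive state by LIF acting through STAT3, together with factors such as Esrrb, Klf2, Klf4 and Tbx3. EpiSCs resemble the epiblast after implantation, are usually kept with activin and FGF, and are called primed because they stand close to lineage commitment. Oct4 is made in both states, mainly through its distal enhancer in naive cells and its proximal enhancer in primed cells.

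Values are normalized log2 signals, so a difference of 1 log2 is a doubling, and signals of different genes cannot be set against each other. A call means an adjusted p (Benjamini-Hochberg) under 0.05 in the limma model across all 10481 genes tested, and every adjusted p below is from that fit. Where the probe of the dimmer side was not detected on either of its arrays, the difference is given as a bound ("at least N-fold"), computed from the brighter side's mean and the lowest detected signals of the dimmer side. The number of arrays limits the precision: the 95% interval of a gene's difference had a median half-width of 0.289 log2. The array medians of the scanner signal before normalization were 313.5 and 316.8 for the EpiSCs and 142.6 to 209.4 for the other 12 arrays, while 46.4% to 53.8% of probes were detected on each array. The EpiSC arrays correlated at 0.976 with each other across genes, against 0.997 to 0.998 in the other groups, and 590 genes lay more than 1 log2 apart between them, against 1 to 20 elsewhere. Both EpiSC arrays are therefore given for each gene described in full. The model pools the spread of all groups, and the others were tighter. Where the EpiSC arrays lie apart, its SEs and p-values thus understate the spread of the EpiSC arrays. Counts of 0 calls printed below for a gene list, with all arrays fitted, were also 0 at an unadjusted limma p under 0.05. The exceptions were 1 higher DNA methylation gene, 1 lower MHC class I gene and, against EpiLCs, 1 lower streak gene. For fits that left out an array this was not examined.

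Between EpiSCs and serum ESCs, 6832 genes (65.2%) were called, 3484 (33.2%) of them higher in EpiSCs and 3348 (31.9%) lower. At least 1 log2 of change was reached by 1451 (13.8%) upward and 1274 (12.2%) downward, and the median over all genes tested was 0.001 log2. A stricter set, called and at least 1 log2 from the serum mean on each EpiSC array with arrays that do not overlap, held 1148 genes (11%) upward and 1006 (9.6%) downward. The single arrays disagreed on the rest: 128 upward and 123 downward genes passed 1 log2 on EpiSC array 1 but not on array 2, and 175 and 145 on array 2 but not on array 1. EpiSC and serum arrays did not overlap for 8308 genes (79.3%). Only the serum probe was undetected for 454 of the called rises, and only the EpiSC probe for 457 of the called falls. A further 34 called rises and 45 called falls were undetected on both sides, so these calls rest on background signal. With RNA taken from many cells at once, fewer cells of a type and less RNA per cell cannot be told apart.

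**Figure D1:**
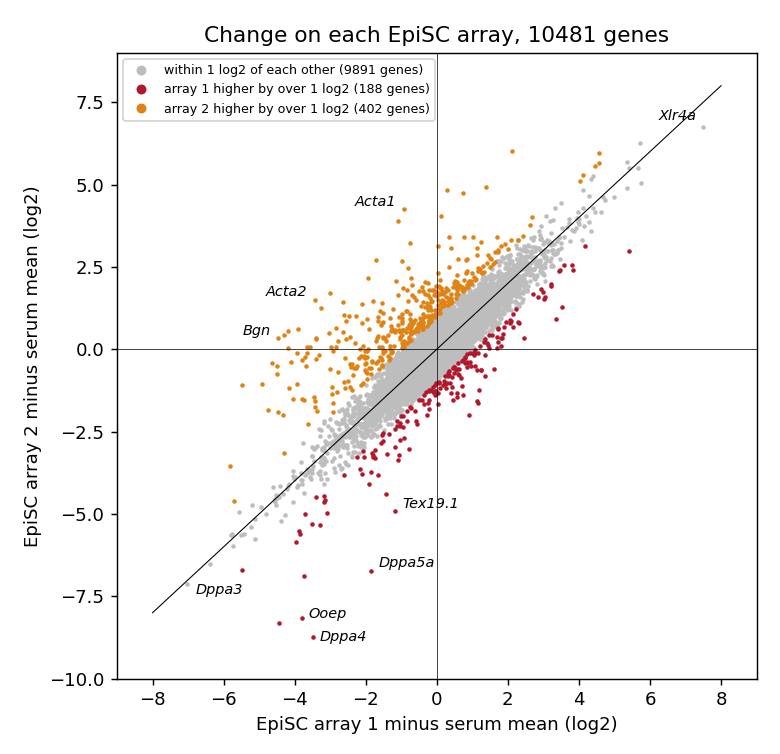
Each point is a gene, with its difference from the serum ESC mean (log2) on EpiSC array 1 (horizontal) and EpiSC array 2 (vertical); the line marks equal values. Coloured points are the 188 genes over 1 log2 higher on array 1 and the 402 over 1 log2 higher on array 2, which spread farther from the line than the other 9891.

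Checked against its markers, the EpiSC label matched for Pou5f1, Nanog and Sall4 and for the primed genes Fgf5, Fgf8, Otx2 and Pou3f1, all detected on both EpiSC arrays, while Sox2 lay near background. Pou5f1, which encodes Oct4, read 13.75 and 13.61 on the EpiSC arrays and 13.57 and 13.74 on the serum arrays. These groups overlap, and the difference was 0.03 log2 (SE 0.13, adjusted p 0.856). Its promoter window is shown because both reporters of the ESC line were built from the regulatory region of this gene. The windows printed here hold 250 bases before to 50 after the start of transcription, are from RefSeq (GRCm38.p6), and have each CG pair in capitals. This one is the first of 2 annotated starts of Pou5f1, at chr17:35505782-35506081 on the plus strand, and holds 11 CG pairs.
Pou5f1: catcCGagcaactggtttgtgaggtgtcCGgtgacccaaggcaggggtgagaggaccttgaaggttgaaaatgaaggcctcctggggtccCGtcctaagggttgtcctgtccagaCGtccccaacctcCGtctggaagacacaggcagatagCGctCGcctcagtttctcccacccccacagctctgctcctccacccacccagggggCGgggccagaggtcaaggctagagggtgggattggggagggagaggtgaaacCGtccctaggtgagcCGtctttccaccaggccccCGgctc
Over the 8477 tested genes with a window, the median number of CG pairs was 20.

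Other core pluripotency genes moved in both directions, 2 higher and 5 lower of 9 tested, beside 33.2% and 31.9% of all genes. Nanog, a homeobox factor of the epiblast, read 14.09 and 14.05 in EpiSCs and 13.58 and 13.49 in serum ESCs. Both EpiSC arrays lay above both serum arrays, by 0.54 log2 on average (SE 0.09, adjusted p 5.89e-04). Sox2, the partner of Oct4 on many enhancers, read 5.93 and 6.33 against 9.83 and 9.69. It fell by 3.63 log2 (SE 0.15, adjusted p 4.61e-08), and its second detected probe fell by 2.24. L1td1, an RNA-binding protein of pluripotent cells, read 10.60 and 9.68 against 13.71 and 13.85, with a fall of 3.65 (adjusted p 5.84e-07). In EpiLCs the L1td1 signal was 13.59, close to serum ESCs, so its fall set EpiSCs apart from EpiLCs as well (3.45 log2, adjusted p 1.94e-06). Utf1, a chromatin factor, fell by 1.05, and Lin28a, which blocks let-7 maturation, was not called (adjusted p 0.985). Sall4, a zinc-finger factor, fell by 0.47 on its representing probe and fell by 3.38 on another, so its size is uncertain. Tdgf1, the Nodal co-receptor Cripto, read 12.33 and 11.33 against 9.95 and 10.09, a rise of 1.81 (adjusted p 1.49e-04).

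**Figure D2:**
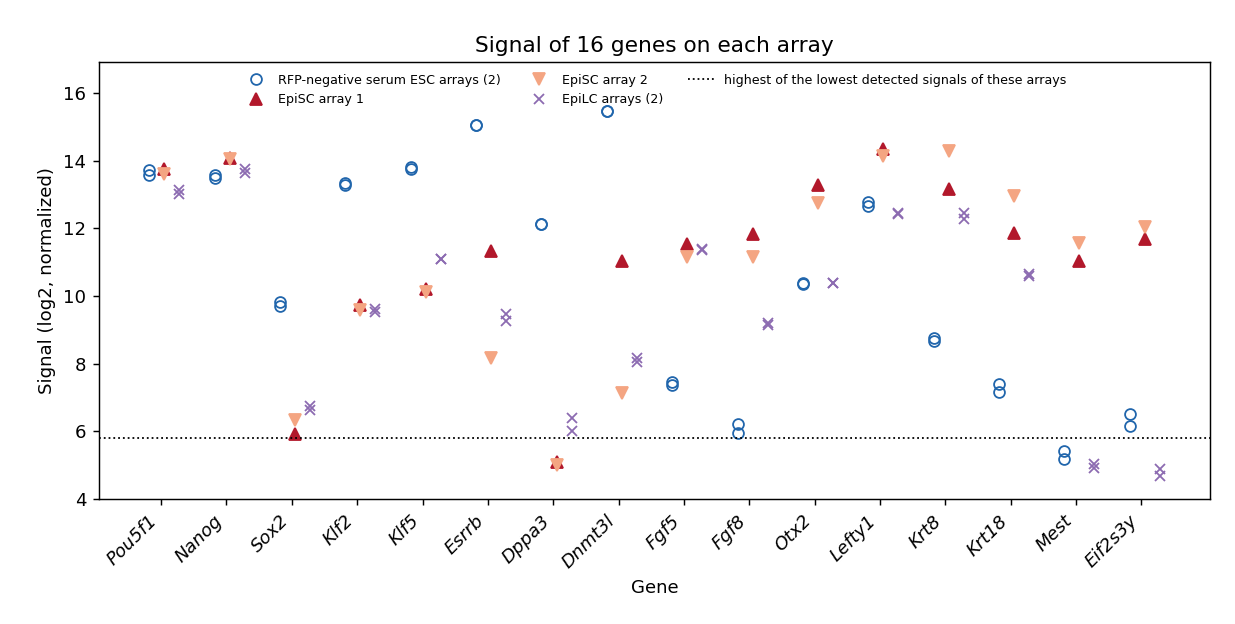
Normalized log2 signal of 16 genes on the serum ESC arrays (circles), EpiSC arrays 1 and 2 (triangles) and EpiLC arrays (crosses); the dotted line is the highest of these arrays' lowest detected signals. Pou5f1 lies near 13.6 in EpiSCs and serum ESCs, while Klf2 is 3.63 log2 lower and Fgf8 5.40 log2 higher in EpiSCs, and Esrrb and Dnmt3l differ between the EpiSC arrays.

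All 16 tested genes of the naive list were called lower in EpiSCs, with a median change of -3.63 log2 (-3.51 on array 1, -3.88 on array 2), where 31.9% of all genes were called lower. Klf2, a Krüppel-like factor of the naive network, read 9.75 and 9.60 in EpiSCs and 13.33 and 13.27 in serum ESCs. It fell by 3.63 (SE 0.09, adjusted p 1.70e-09), with both EpiSC arrays close together. Klf5 behaved likewise, at 10.20 and 10.12 against 13.82 and 13.77, a fall of 3.63 (SE 0.07, adjusted p 4.32e-10). Klf4 read 7.60 and 8.51 against 11.34 and 11.36, a fall of 3.30 (adjusted p 9.11e-07).
Dppa3 (Stella), a maternal and germ cell factor, was not detected on either EpiSC array (5.10 and 5.01) and read 12.13 on both serum arrays, at least 85.6-fold higher there (adjusted p 2.20e-10). Tbx3, a T-box factor, was likewise undetected at 4.85 and 5.47 against 10.38 and 10.42, at least 25.9-fold lower in EpiSCs. Pecam1, an adhesion molecule of ESCs, was at least 10.2-fold lower. Several naive genes were still measured on EpiSC array 1 and lower on array 2. Esrrb, an orphan nuclear receptor, read 11.32 and 8.16 against 15.06 and 15.05, a fall of 5.31 with a wide SE of 0.73 (adjusted p 1.28e-04). Zfp42 (Rex1) read 8.99 and 6.83 against 10.58 and 10.70, and Tcl1, a cofactor of Akt, 6.71 and 4.81 against 10.62 and 10.72. On both EpiSC arrays these genes remained below both serum arrays. Gbx2 fell by 4.32, Dppa5a by 4.28, Jam2 by 3.52 and Fbxo15 by 3.01. Nr5a2, a nuclear receptor, fell by 4.73 on its representing probe, while another of its probes rose by 0.66. Prdm14 lay near background (5.17 and 5.09 against 5.51 and 5.70), and its call was lost without serum replicate 2 (adjusted p 0.054). Against EpiLCs, where 56.4% of all genes were called, 11 of the 16 were not called, 4 were lower (Dppa3, Klf4, Klf5 and Fbxo15), and Pecam1 was called higher with both groups below background.

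Genes of the post-implantation epiblast rose: 11 of 13 tested were called higher and 0 lower, with a median of 2.63 log2 (2.54 with undetected serum signals at their bound). The 33.2% of all genes called higher is the background for this count. Fgf5, the ligand that marks the early post-implantation epiblast, read 11.55 and 11.16 in EpiSCs and 7.37 and 7.46 in serum ESCs. It rose by 3.94 (SE 0.14, adjusted p 1.68e-08), and its EpiLC signal of 11.37 did not differ detectably from EpiSCs (difference -0.02, adjusted p 0.927). Fgf8, a ligand of the later epiblast and streak, read 11.83 and 11.14 against 6.22 and 5.94, a rise of 5.40 (SE 0.21, adjusted p 2.81e-08). EpiLCs stood between, so that EpiSCs exceeded them by 2.30 log2 (adjusted p 1.50e-05). Otx2, a homeobox factor of the primed and anterior epiblast, read 13.27 and 12.74 against 10.37 and 10.38, a rise of 2.63 (adjusted p 3.11e-07). EpiLCs were at 10.40, no higher than serum ESCs, and EpiSCs exceeded them by 2.61. The arrays of Fgf8 and Otx2 were each higher on EpiSC array 1, and neither group overlapped. Car4, a carbonic anhydrase, rose by 3.36, Fgf15, a ligand of the FGF19 family, by 2.95, Wnt8a by 2.94, the tight-junction claudin Cldn6 by 1.82 and the Wnt antagonist Sfrp2 by 1.71. Zic2, a zinc-finger factor, was not detected in serum ESCs and was at least 5.81-fold higher in EpiSCs. Pou3f1 (Oct6) rose by 0.85 (11.90 and 11.12 against 10.67 and 10.66), and its call was lost when only the EpiSC and serum arrays were fitted (adjusted p 0.0795). Lef1 (0.27, adjusted p 0.246) and Pim2 (0.38, adjusted p 0.154) did not pass.

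Of 11 tested genes of the primitive streak and mesendoderm, 6 were higher and 2 lower, beside 33.2% and 31.9% of all genes. Gsc, the organizer homeobox gene, read 9.56 and 8.54 in EpiSCs and was undetected in serum ESCs (5.11 and 5.68), at least 10.6-fold higher (adjusted p 4.06e-06). Lhx1, a LIM homeobox factor of the anterior streak, was at least 3.55-fold higher (7.60 and 7.35 against 5.0 and 4.95). Foxa2, a pioneer factor of definitive endoderm, read 7.99 and 6.53 against 4.91 and 4.97, at least 3.05-fold higher. Wnt3, the ligand needed for streak formation, was at least 3.45-fold higher, and the T-box factor Eomes rose by 1.37 (7.94 and 7.72 against 6.63 and 6.28). Mixl1 was at least 1.37-fold higher. Cdx1, a caudal homeobox gene, fell by 2.29 and Sp5, a Wnt target, by 1.97. Of these, Gsc, Lhx1, Foxa2, Eomes and Mixl1 were also higher than in EpiLCs, 7 of 11 list members being called higher there and 0 lower, where 27.9% of all genes were called higher and 28.5% lower.

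Nodal and activin signalling, which sustains the primed state, gave 6 higher and 3 lower of 11 tested, beside 33.2% and 31.9% of all genes. With only the EpiSC and serum arrays fitted the higher count was 5. Nodal itself was called narrowly (0.67, adjusted p 0.0482), at 1.225 log2 above the serum mean on EpiSC array 1 and 0.112 on array 2. Lefty1, a secreted Nodal inhibitor and target, read 14.35 and 14.12 against 12.67 and 12.76, a rise of 1.52 (SE 0.08, adjusted p 2.62e-07). Its relative Lefty2 split the EpiSC arrays, at 12.63 and 10.51 against 11.93 and 11.87, above the serum arrays on array 1 and below them on array 2. Smad3, a receptor-activated mediator, rose by 1.73 and Skil, its co-repressor, by 1.03, while Smad2 fell by 0.67. Gdf3, a Nodal-related ligand, read 8.72 and 7.87 against 13.15 and 13.06, a fall of 4.81 (SE 0.23, adjusted p 9.88e-08), and was also 3.10 log2 below EpiLCs.

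Among FGF ligands and receptors 4 were higher and 4 lower of 10 tested, beside 33.2% and 31.9% of all genes. Fgf5, Fgf8 and Fgf15 above were among the higher ones. Fgf4, the main FGF of naive cells, was undetected in EpiSCs and at least 1.34-fold lower. The receptor Fgfr1 had a difference of -0.14 (adjusted p 0.376). Targets of the ERK pathway downstream of FGF did not share a direction, with 5 higher and 6 lower of 14 tested, beside the same shares of all genes. The feedback phosphatase Dusp4 read 10.57 and 10.38 against 12.49 and 12.43, a fall of 1.98 (adjusted p 5.48e-08). Spry4, a feedback inhibitor, fell by 2.16, and the ETS factor Etv5 by 1.79. Myc was undetected in EpiSCs (4.92 and 5.40 against 6.96 and 7.21), at least 2.59-fold lower. The higher members were led by Fos, at 13.81 and 13.78 against 10.39 and 10.38, a rise of 3.41 (SE 0.11, adjusted p 8.31e-09). Without either serum array the higher count was 2 in place of 5.

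LIF and STAT3 signalling, which holds ESCs in the naive state, gave 8 lower and 2 higher of 11 tested, where 31.9% and 33.2% of all genes were called lower and higher. Socs3, the feedback inhibitor induced by STAT3, read 10.18 and 10.22 in EpiSCs and 12.21 and 12.19 in serum ESCs, a fall of 2.00 (SE 0.09, adjusted p 6.65e-08). The LIF receptor gene Lifr read 6.26 and 5.52 against 8.64 and 8.63 and fell by 2.74. Its co-receptor Il6st (gp130) fell by 1.34, the target Bcl3 by 2.47, the related receptor Osmr by 1.81 and Stat3 itself by 0.51. Each of these genes was lower on both EpiSC arrays than on either serum array. Jak1, the receptor-bound kinase, rose by 0.67, and Junb by 0.31. The call of Junb was lost without EpiSC replicate 1 (adjusted p 0.15), without serum replicate 1 (adjusted p 0.0882) and without serum replicate 2 (adjusted p 0.0962), which left 1 higher gene in the list. The growth medium of the EpiSCs, LIF included, is not given in the labels.

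Of 22 tested Wnt pathway genes 6 were higher and 7 lower, near the 33.2% and 31.9% of all genes. Notum, a secreted inhibitor that removes the lipid from Wnt proteins, was undetected in EpiSCs (4.92 and 4.83) and read 9.22 and 9.25 in serum ESCs, at least 11.5-fold lower (adjusted p 5.98e-10). The ligand Wnt3a was at least 5.37-fold lower, Wnt7b fell by 2.29, and Porcn, which adds the lipid to Wnt proteins, by 2.45. The receptor Fzd2 read 9.90 and 10.08 against 6.38 and 6.39, a rise of 3.60 (adjusted p 1.30e-07). Axin2, a common target of the pathway, had a difference of -0.17 (adjusted p 0.154). Of 14 BMP pathway genes 7 were higher and 4 lower, beside 33.2% and 31.9% of all genes. Bmp4, a ligand that acts with LIF on ESCs, read 8.25 and 9.93 against 11.70 and 11.69, a fall of 2.60 (adjusted p 2.33e-04). The BMP antagonist Grem1 read 5.86 and 8.78 against 10.66 and 10.58, and Id3, a target, fell by 0.60. The mediator Smad5 rose by 1.78, the ligand Bmp7 by 1.69 and Id2 by 1.36.

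**Figure D3:**
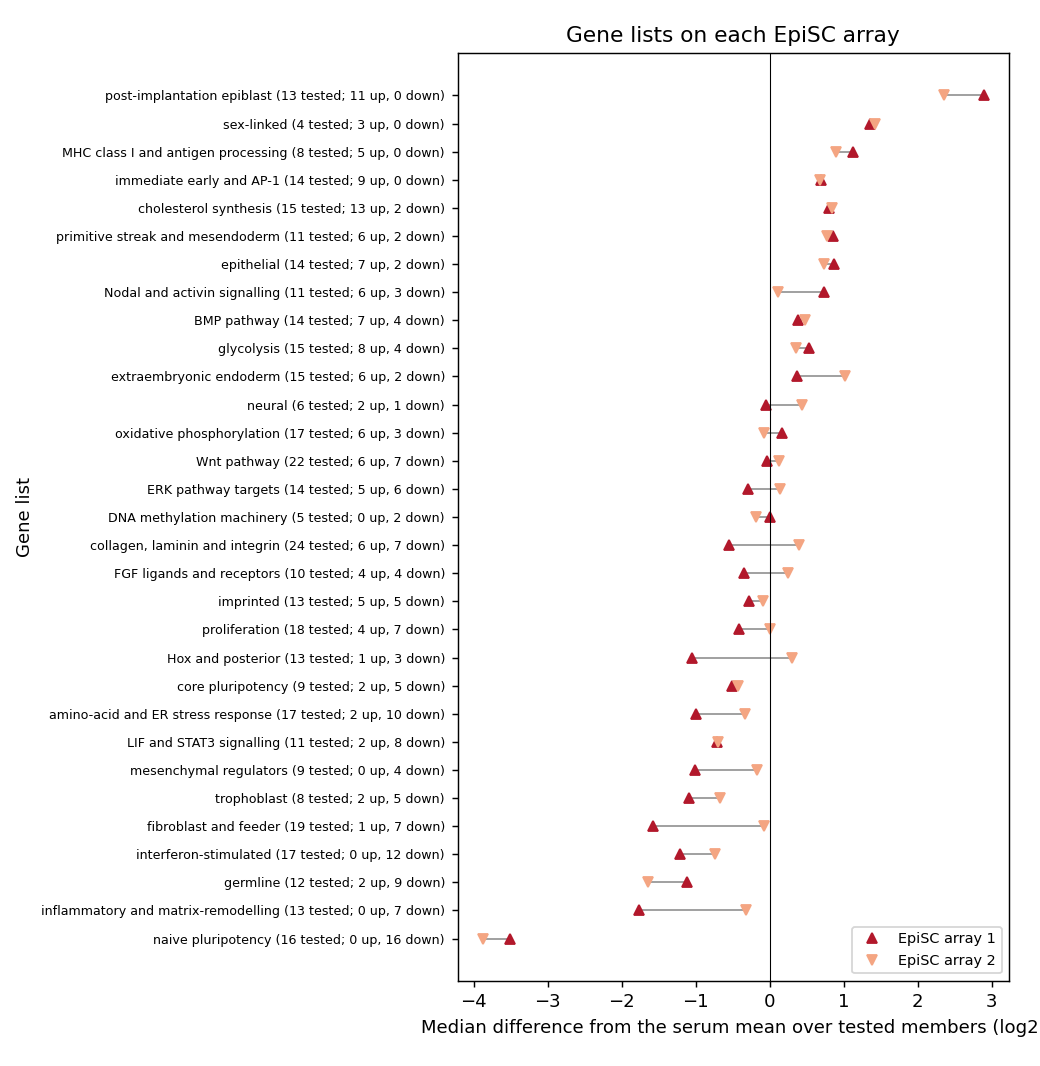
Median difference from the serum ESC mean (log2) over the tested members of each of 31 gene lists, on EpiSC array 1 (upward triangles) and EpiSC array 2 (downward triangles), with the numbers tested and called beside each name. The post-implantation list lies at 2.89 and 2.36 and the naive list at -3.51 and -3.88, while the fibroblast list lies at -1.58 on array 1 and -0.08 on array 2.

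Epithelial genes were higher in 7 and lower in 2 of 14 tested, beside 33.2% and 31.9% of all genes. The partner keratins Krt8 and Krt18, which form the first keratin filaments of the embryo, were among the 20 largest rises. Krt8 read 13.15 and 14.28 against 8.67 and 8.75, a rise of 5.01 (SE 0.30, adjusted p 4.67e-07). Krt18 read 11.85 and 12.94 against 7.18 and 7.40, a rise of 5.11 (SE 0.34, adjusted p 9.20e-07). On both genes EpiSC array 2 was the higher by over 1 log2, and both arrays exceeded serum ESCs and EpiLCs (12.36 and 10.63). These genes lie close together on chromosome 15, and their promoter windows are shown because the pair moved together. The window of Krt8 is at chr15:102004293-102004592 on the minus strand with 6 CG pairs, and that of Krt18 at chr15:102027966-102028265 on the plus strand with 17.
Krt8: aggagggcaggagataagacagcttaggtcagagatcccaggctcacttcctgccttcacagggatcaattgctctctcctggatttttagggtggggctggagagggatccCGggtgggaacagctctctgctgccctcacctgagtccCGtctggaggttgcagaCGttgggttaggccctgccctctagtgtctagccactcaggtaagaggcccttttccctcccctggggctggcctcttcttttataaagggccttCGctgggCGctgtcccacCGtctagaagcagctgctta
Krt18: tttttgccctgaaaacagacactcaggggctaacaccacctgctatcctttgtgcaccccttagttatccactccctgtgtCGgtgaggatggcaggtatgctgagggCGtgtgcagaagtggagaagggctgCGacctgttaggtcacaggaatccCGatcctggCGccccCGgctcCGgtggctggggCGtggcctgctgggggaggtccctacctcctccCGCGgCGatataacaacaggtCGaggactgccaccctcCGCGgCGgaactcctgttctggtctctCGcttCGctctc
Krt19 was undetected in serum ESCs and at least 17.2-fold higher in EpiSCs (9.17 and 10.34), and Krt7 rose by 3.19. Esrp1, an epithelial splicing factor, rose by 1.89 and the claudin Cldn3 by 1.47, while E-cadherin (Cdh1) read 12.25 and 12.29 against 12.20 and 12.20 (difference 0.07, adjusted p 0.66). Ovol1, a zinc-finger factor of epithelia, was at least 4.0-fold lower.

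DNA methylation genes gave 0 higher and 2 lower of 5 tested, beside 33.2% and 31.9% of all genes. Dnmt3l, the catalytically inactive partner of the de novo methyltransferases, read 11.03 and 7.14 in EpiSCs and 15.46 on both serum arrays. It fell by 6.38 with an SE of 0.90 (adjusted p 1.49e-04), and the EpiSC arrays were 3.89 log2 apart. Trim28, a co-repressor, fell by 1.02. Dnmt3b, a de novo methyltransferase, read 15.32 and 15.23 against 15.11 and 15.13 (0.16, adjusted p 0.0568), and it was called without EpiSC replicate 2 (0.20, adjusted p 0.0197). Dnmt1, the maintenance enzyme, and its partner Uhrf1 were not called.
Germline genes gave 9 lower and 2 higher of 12 tested, beside 31.9% and 33.2% of all genes. With only the EpiSC and serum arrays fitted 6 were lower and 2 higher, where 2467 and 2627 of all genes were. Nanos3, an RNA-binding protein of germ cells, was at least 9.85-fold lower in EpiSCs, and the X-linked homeobox genes Rhox9 and Rhox6 at least 20.2-fold and 6.23-fold. Tfap2c, a factor of the germ line and of naive cells, fell by 1.78 (11.70 and 11.95 against 13.64 and 13.56), and Dnd1, which protects germ cell transcripts, rose by 1.00.

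The largest changes seen on both EpiSC arrays named other genes as well. Xlr4a, an X-linked gene of the Xlr cluster, read 13.80 and 13.05 against 6.35 and 6.24, a rise of 7.13 (SE 0.19, adjusted p 2.55e-09), and in EpiLCs it was undetected. Mest, a paternally expressed imprinted gene, read 11.03 and 11.58 and was undetected in serum ESCs (5.20 and 5.41), at least 50.4-fold higher. Another probe of Mest rose by 3.70, and single-reporter serum ESCs read 8.52. Svop, related to synaptic vesicle proteins, rose by 5.58, the sulfotransferase Chst1 by 5.26 and the carbonic anhydrase Car14 by 4.76. H2-Ab1, an MHC class II chain, was at least 34.8-fold higher (10.71 and 10.83), and the calcium channel Cacna1h at least 22.6-fold. Others among the 20 were Tmem87a (4.64), Igfbp5 (4.47) and Adssl1 (4.8, with another probe at 1.79). Fmr1nb was at least 30.7-fold higher (another probe rose by 1.60), Gm14685 at least 17.5-fold, Sptb 15.1-fold, Nme5 14.6-fold and Cldn11 14.2-fold.

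Among the 20 largest falls, Krt42, a keratin gene, was undetected in EpiSCs (5.17 and 5.05 against 11.58 and 11.54), at least 57.6-fold lower (adjusted p 6.04e-10). The basic helix-loop-helix gene Msc was at least 37.3-fold lower, the sterol-transport gene Arv1 31.2-fold, Apoa2, an apolipoprotein, 28.2-fold and Ctsc, the protease cathepsin C, 25.9-fold (another probe of Ctsc fell by 3.00). Olig1, a basic helix-loop-helix gene, read 6.64 and 5.42 against 12.15 and 12.10, a fall of 6.09, and EpiLCs were at 12.09, as high as serum ESCs. The myosin light chain gene Mylpf fell by 5.68, the ubiquitin-like Ubd by 5.44, the signalosome subunit Cops8 by 5.16, the mitotic kinase Plk1 by 5.14, Irak3 by 4.97 and the water channel Aqp3 by 4.90. The EpiSC arrays that chose these genes also enter the fits with another reference, so agreement was likely in advance. All 20 rises and all 20 falls were called in the same direction against RFP-positive serum ESCs, as were 94.1% of all 6832 calls. Against the single-reporter serum ESC line all 20 falls and 19 rises were, the exception being Igfbp5 (-0.11, adjusted p 0.393). Of all 6832 calls, 71.3% were called in the same direction there. With that line as the reference, other genes whose direction turned included Sall4, Lin28a, L1td1, Uhrf1, Gata6, Col4a1, Mmp2 and Chac1. Junb, Fosb, Lss, Srebf2, Slpi, Cdkn1a and Cdkn1b turned as well. Genes called against neither RFP-negative nor single-reporter serum ESCs are left out here.

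The genes that separated the EpiSC arrays are given here as a description with no test. EpiSC array 1 was over 1 log2 higher for 188 genes, led by the SAP-domain gene Dppa4 (11.07 and 5.82, with serum ESCs at 14.52 and 14.60), Dppa5a (14.19 and 9.30, serum 16.01 and 16.05), the oocyte gene Ooep (10.22 and 5.87, serum 14.02 on both arrays), Dnmt3l, the germline gene Tex19.1 (9.83 and 6.08, serum 11.03 and 10.97) and Esrrb. For these the serum arrays lay highest, array 1 in between and array 2 lowest. Of the 188, 100 (53.2%) had a serum mean more than 1 log2 above the lower EpiSC array, and 162 (40.3%) of the 402 described next. These genes were chosen for a low value on 1 EpiSC array, so the 16.3% over all genes is no baseline for either share. Rhox5 (12.07 and 9.28, serum 10.99 and 10.84) and Amn (9.27 and 6.35, serum 8.44 and 8.29) lay on both sides of serum ESCs.
EpiSC array 2 was over 1 log2 higher for 402 genes, led by the skeletal actin Acta1 (8.68 and 13.86, serum 9.58 and 9.63), the small heat-shock gene Cryab (6.01 and 11.003, serum 7.39 and 6.83), the smooth-muscle actin Acta2 (10.19 and 15.13, serum 13.60 and 13.64) and the proteoglycan Bgn (8.54 and 13.37, serum 13.03 and 13.02). Here array 2 met or exceeded the serum arrays and array 1 lay below them. Of the 402, 334 (83.1%) had a MEF mean more than 1 log2 above the lower EpiSC array, against 9.57% of the 188. Here too the choice by a low EpiSC value means that the 23.3% over all genes is no baseline. Among the 188, 40 were called higher and 71 lower against serum ESCs (59% called), and among the 402, 103 and 74 (44%), where 65.2% of all genes were called; the spread between the EpiSC arrays that chose these genes also enters the test. The EpiSC arrays lay on opposite sides of the serum mean for 64 and 190 of them, and for 1566 of all 10481 genes. The gap between the arrays that chose these genes itself makes opposite sides more likely.

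Promoters of several germline genes are known to be silenced by methylation of CG pairs, which was not measured here. The windows of Tex19.1 (chr11:121145893-121146192, plus strand, 16 CG pairs) and Ooep (chr9:78378539-78378838, minus strand, 15 CG pairs) are shown since these genes are among those farthest apart between the EpiSC arrays.
Tex19.1: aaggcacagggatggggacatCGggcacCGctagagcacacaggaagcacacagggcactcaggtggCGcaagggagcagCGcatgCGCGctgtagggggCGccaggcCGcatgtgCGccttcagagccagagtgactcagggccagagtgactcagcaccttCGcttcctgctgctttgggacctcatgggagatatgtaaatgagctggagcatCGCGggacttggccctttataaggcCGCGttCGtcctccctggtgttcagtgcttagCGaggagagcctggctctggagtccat
Ooep: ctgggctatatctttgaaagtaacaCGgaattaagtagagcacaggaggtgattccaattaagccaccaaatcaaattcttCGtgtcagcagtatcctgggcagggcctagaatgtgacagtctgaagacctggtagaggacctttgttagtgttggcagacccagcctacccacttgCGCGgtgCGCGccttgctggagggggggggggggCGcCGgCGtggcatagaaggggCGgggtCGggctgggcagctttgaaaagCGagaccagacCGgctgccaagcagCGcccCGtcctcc

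**Figure D4:**
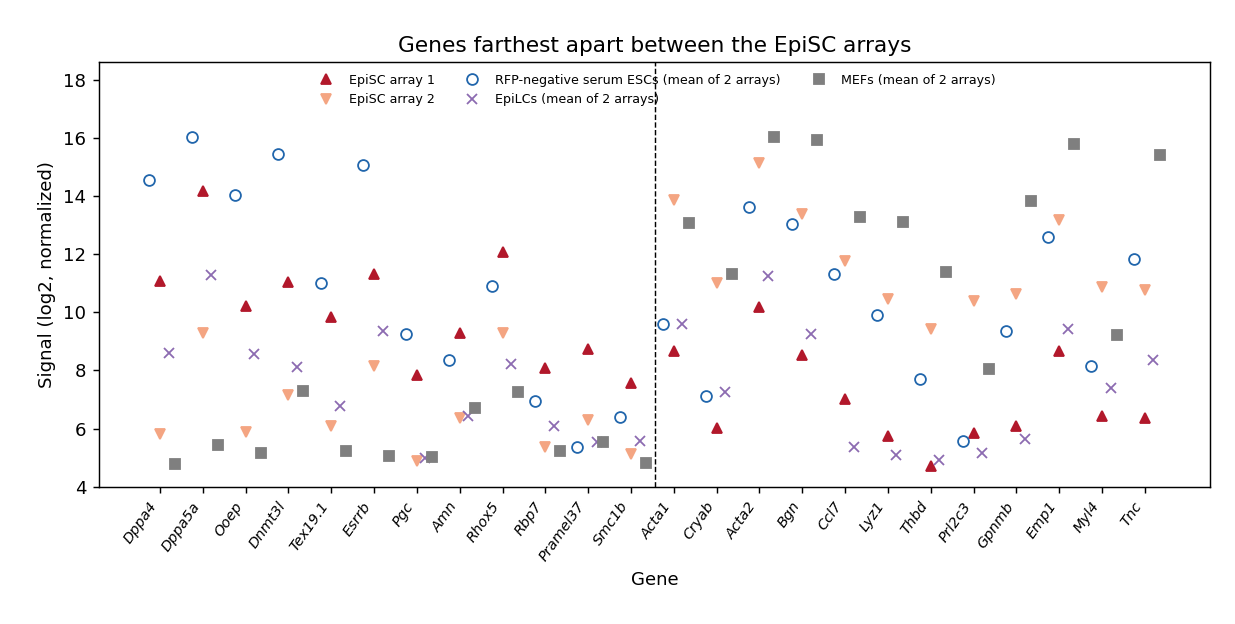
Normalized log2 signal of the 12 genes farthest apart with EpiSC array 1 higher (left of the dashed line) and the 12 with array 2 higher (right), on each EpiSC array and as the mean of 2 arrays for serum ESCs, EpiLCs and MEFs. On the left Dppa4 reads 11.07 on array 1 and 5.82 on array 2, and on the right Acta2 reads 10.19 and 15.13, with MEFs at 16.05.

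Fibroblast and feeder genes gave 1 higher and 7 lower of 19 tested, the latter share near the 31.9% of all genes called lower, and the counts depended on the array. Without EpiSC replicate 1 there were 8 higher and 6 lower, without EpiSC replicate 2 there were 15 lower, and without either serum array 4 lower. The mean signal of the list was 7.07 on EpiSC array 1, 9.09 on array 2, 8.89 and 8.87 on the serum arrays, 7.29 in EpiLCs and 12.9 in MEFs. Undetected members numbered 7 of 19 on EpiSC array 1 and 3 of 19 on array 2. The defining collagen Col1a1 read 6.04 and 9.57 against 9.62 and 9.77 in serum ESCs and 15.67 in MEFs, and Dcn 7.59 and 11.13 against 10.72 and 10.55. Col1a2 and Col3a1 were undetected on both EpiSC arrays. Thy1, a surface glycoprotein, read 10.53 and 10.84 against 11.53 and 11.55, a fall of 0.86 (adjusted p 1.32e-04), and the protease Mmp2 rose by 2.02. Array 2 thus lay near serum ESCs for most of this list and array 1 near EpiLCs. The part of fibroblast RNA in the other results was not tested.

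Related lists also depended on the EpiSC array, and some share members with the fibroblast list. The mesenchymal list shares Twist2 and Prrx1 with it, and the collagen list Col1a1, Col1a2 and Col3a1. Among all genes 33.2% were called higher and 31.9% lower. Mesenchymal regulators gave 0 higher and 4 lower of 9, with 3 higher and 2 lower without EpiSC replicate 1, 7 lower without EpiSC replicate 2, and 0 and 1 lower without serum replicates 1 and 2. Vim, an intermediate filament gene, read 9.30 and 11.19 against 10.87 and 10.78, and Zeb1, a repressor of E-cadherin, 6.46 and 8.96 against 8.76 and 8.78. Of 24 collagen, laminin and integrin genes 6 were higher and 7 lower, with 11 higher without EpiSC replicate 1 and 16 lower without EpiSC replicate 2. Of 13 Hox and posterior genes 1 was higher, Meis2 (2.56), and 3 were lower, with 5 higher without EpiSC replicate 1 and 10 lower without EpiSC replicate 2. Inflammatory and matrix-remodelling genes gave 0 higher and 7 lower of 13, with 3 lower without either serum array and 5 higher without EpiSC replicate 1. Among them the collagenase Mmp13 read 5.07 and 7.32 against 10.84 and 10.91, a fall of 4.68 (adjusted p 3.35e-05).

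Interferon-stimulated genes fell in 12 of 17 tested and rose in 0, where 31.9% of all genes were called lower. Usp18, which removes ISG15 from proteins, read 9.17 and 9.76 against 11.74 and 11.68, a fall of 2.24 (adjusted p 1.58e-06). The RNA sensor Ddx58 read 8.0 on both EpiSC arrays against 10.42 and 10.45, a fall of 2.43. Ifitm1, a membrane protein, fell by 3.75, Isg15 by 1.82 and Irf9, part of the interferon-induced transcription complex, by 1.62. Of the 17 list members, 11 were called higher in EpiSCs than in EpiLCs and 0 lower, beside 27.9% and 28.5% of all genes. Genes of antigen presentation by MHC class I gave 5 higher and 0 lower of 8 (1 lower without EpiSC replicate 1), beside 33.2% of all genes called higher. Of the other members, Psmb8 had a difference of 0.40 (adjusted p 0.201) and Psmb10 of -0.53 (adjusted p 0.0678). The peptide transporter genes Tap1 and Tap2 rose by 1.70 and 1.93, and the heavy chain H2-K1 read 6.99 and 7.19 against 6.04 and 5.66, a rise of 1.23. B2m, the light chain, read 12.54 and 14.40 against 12.46 and 12.51, near serum on array 1 and well above on array 2. It was not called (adjusted p 0.0695), and was called without EpiSC replicate 1 (1.91, adjusted p 8.20e-08).

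Cholesterol synthesis genes were higher in 13 of 15 and lower in 2 (Lss and Srebf2), with a median of 0.78 log2, where 33.2% and 31.9% of all genes were called higher and lower. Dhcr7, the last enzyme of one branch of the pathway, read 10.91 and 11.09 against 9.22 and 9.23, a rise of 1.77 (SE 0.08, adjusted p 6.84e-08). Msmo1, a sterol oxidase, rose by 1.51, Insig1, a sterol-sensing regulator, by 1.52 and Hmgcs1, at the start of the pathway, by 1.01. Lss fell by 0.23 and lost its call without EpiSC replicate 1 (adjusted p 0.109), serum replicate 1 (0.08) or serum replicate 2 (0.13). Srebf2 fell by 0.24 and lost it without EpiSC replicate 2 (0.0566) or serum replicate 2 (0.138). Against EpiLCs 3 of the 15 were higher and 8 lower, beside 27.9% and 28.5% of all genes. Glycolysis genes gave 8 higher and 4 lower of 15, beside 33.2% and 31.9% of all genes. The glucose transporter Slc2a1 rose by 1.91, the aldolase gene Aldoa by 1.13 and Ldha, the muscle-type lactate dehydrogenase subunit, by 0.91. The platelet phosphofructokinase gene Pfkp fell by 1.96 and Pdk1, which restrains pyruvate entry into mitochondria, by 2.03, while Gapdh had a difference of 0.01 (adjusted p 0.865). Oxidative phosphorylation genes changed little, with 6 higher and 3 lower of 17, beside the same shares of all genes. The respiratory chain subunit Cox4i1 had the largest change, a fall of 0.73 log2. The lower count of this list changed when any EpiSC or serum array was left out.

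Genes of the amino-acid and ER stress response gave 10 lower and 2 higher of 17, beside 31.9% and 33.2% of all genes. This balance depended on the reference. With single-reporter serum ESCs in its place 6 were lower and 7 higher, where 3845 and 3684 of all genes were. Atf4, the transcription factor at the centre of this response, read 8.2 and 8.41 in EpiSCs and 11.34 and 11.42 in serum ESCs, a fall of 3.07 (SE 0.09, adjusted p 4.05e-09). Both EpiSC arrays were close together and far from serum ESCs and from EpiLCs (11.53). Its targets Trib3, a pseudokinase, and Chac1, which degrades glutathione, fell by 2.23 and 2.50, the amino-acid transporter Slc7a5 by 1.60 and Ddit3 (CHOP) by 1.55. Xbp1, of another branch of the ER stress response, rose by 0.58. Against EpiLCs 14 of the 17 were lower and 0 higher, where 28.5% of all genes were called lower. Immediate early genes were higher in 9 of 14 and lower in 0, beside 33.2% and 31.9% of all genes. Fos was in front, with Egr2 at 2.27, Jun at 1.74, Fosb at 1.48 and Egr1 at 0.79. Against EpiLCs 4 of them were higher and 6 lower, beside 27.9% and 28.5% of all genes.

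Proliferation genes gave 4 higher and 7 lower of 18, beside 33.2% and 31.9% of all genes. Cdkn1a (p21), a CDK inhibitor, read 12.55 and 12.71 against 10.59 and 10.63, a rise of 2.02 (adjusted p 2.59e-08), while its relatives Cdkn1b and Cdkn1c fell by 1.59 and 2.51. The helicase subunits Mcm2 and Mcm5 fell by 1.30 and 1.03. Mcm6 read -0.02 (adjusted p 0.831) on the representing probe and -6.11 on another, and Cdk1 0.59 and -0.95, so probe choice decides these genes. Plk1 read 7.96 and 7.91 against 13.06 and 13.07 on the only detected probe.

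Of 13 imprinted genes, which are expressed from 1 parental allele, 5 were higher and 5 lower, beside 33.2% and 31.9% of all genes. Beside Mest, the paternally expressed Peg3 rose by 1.60 (7.93 and 9.45 against 7.02 and 7.15), and the maternally expressed Grb10 read 10.64 and 10.60 against 13.88 and 13.90, a fall of 3.27 (SE 0.07, adjusted p 5.98e-10). Igf2, a growth factor gene, read 9.62 and 13.60 against 10.38 and 10.37, below serum on array 1 and above on array 2. Y-linked genes did not share a direction. Eif2s3y, a translation factor subunit, read 11.69 and 12.03 in EpiSCs, 6.52 and 6.15 in serum ESCs, 4.78 in EpiLCs of the same ESC line and 12.14 in MEFs. It was 5.53 log2 higher in EpiSCs than in serum ESCs (SE 0.14, adjusted p 2.02e-09). Kdm5d, a Y-linked demethylase, read 7.02 and 7.18 against 5.11 and 4.91 and was at least 2.73-fold higher, and Uty rose by 0.69. Sly, another Y-linked gene, was lower on the EpiSC arrays (5.04 and 4.84) than on the serum arrays (6.39 and 6.04). Usp9y and Sry were each detected on 1 array of the series, and read highest on EpiSC array 2 (Usp9y, 7.18) and on EpiSC array 1 (Sry, 6.01). Of 344 tested X-linked genes 157 (45.6%) were higher and 79 (23%) lower, with a median of 0.21 log2, where 33.2% and 31.9% of all genes tested were called higher and lower.

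Markers of other lineages were mixed, and 33.2% higher and 31.9% lower among all genes are the background for their counts. Extraembryonic endoderm genes gave 6 higher and 2 lower of 15. With single-reporter serum ESCs as the reference 3 were higher and 7 lower, where 3684 and 3845 of all genes were. Gata6 and Col4a1, given next against RFP-negative serum ESCs, changed direction there. Gata6, a factor of the primitive endoderm, read 7.96 and 7.51 against 5.93 and 5.35, a rise of 2.10 (adjusted p 1.20e-05). Sox17, shared with definitive endoderm, was at least 3.39-fold higher (8.06 and 6.76 against 4.97 and 4.71), Ttr at least 2.27-fold, and Col4a1, a basement membrane collagen, rose by 2.00, while Lama1 fell by 2.16 and Apoe by 1.24. Without EpiSC replicate 1, 10 of the list were higher and 3 lower, and without EpiSC replicate 2, 4 were lower. Trophoblast genes gave 2 higher and 5 lower of 8. Tead4 was at least 13.3-fold lower (5.63 and 5.47 against 9.52 and 9.38), and Gata2 read 5.16 and 7.46 against 8.97 and 8.94. Of 6 neural genes 2 were higher, led by the intermediate filament gene Nes (10.10 and 10.52 against 7.15 and 7.21, a rise of 3.13), and 1 was lower. Without EpiSC replicate 1 these neural counts were 3 and 0, without EpiSC replicate 2 they were 2 and 2, and without serum replicate 2 they were 2 and 0.

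EpiSCs and EpiLCs left serum ESCs in opposite directions for some genes. Called higher in EpiSCs, lower in EpiLCs and different between both were 243 genes (2.32%), and the reverse held for 278 (2.65%). The shared serum arrays cancel in the direct comparison of EpiSCs with EpiLCs, which called 5909 genes (56.4%). Gbp2b, an interferon-induced GTPase, read 11.26 and 10.56 in EpiSCs, 7.92 and 8.09 in serum ESCs and was undetected in EpiLCs (4.84). Txnip, which binds thioredoxin, read 13.48 and 13.44 against 11.97 and 11.99, with EpiLCs at 10.32. In reverse, Slpi, a secreted protease inhibitor, read 4.94 and 5.98 against 6.89 and 7.25, with EpiLCs at 12.30, and Zfp365 read 6.79 and 7.67 against 9.55 and 9.54, with EpiLCs at 11.55. Serum ESCs lay between the others for each of these genes.

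**Figure D5:**
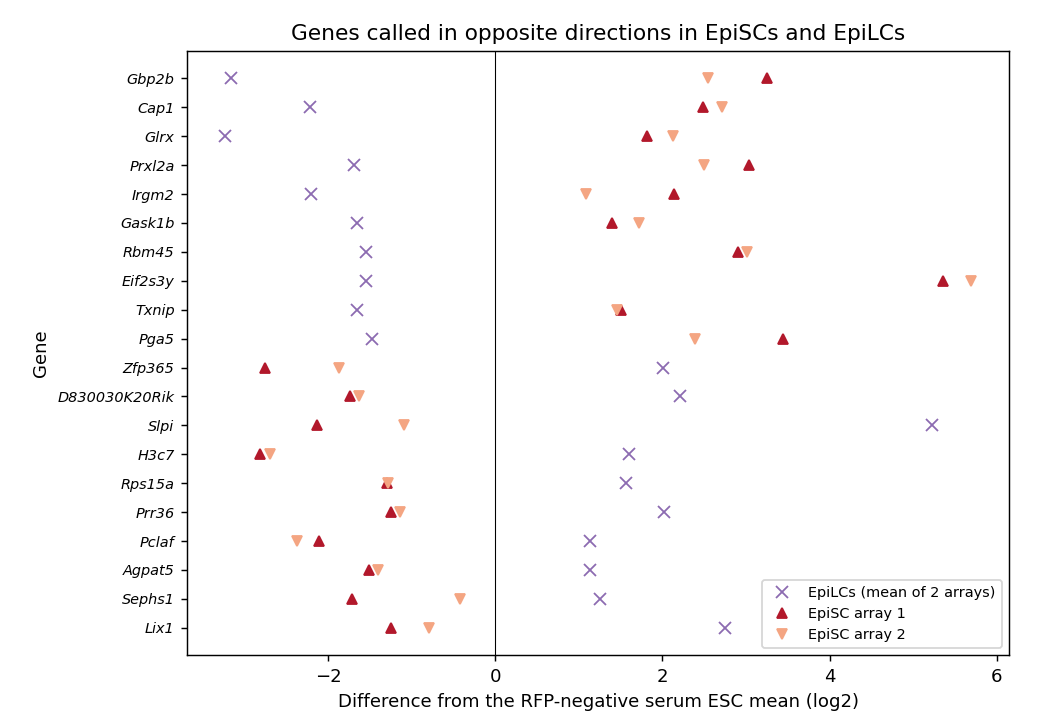
Difference from the RFP-negative serum ESC mean (log2, 0 marked) for 20 genes called in opposite directions, with EpiSC arrays 1 and 2 as triangles and the EpiLC mean of 2 arrays as crosses. Gbp2b is 2.90 log2 above serum ESCs in EpiSCs and 3.17 below them in EpiLCs, and Slpi is 1.61 below and 5.22 above.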

How the data were processed

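The series holds 14 Illumina mouse beadchips, each hybridised with biotinylated cRNA, and the labels put them in 7 groups of 2. The authors deposited, per the file headers, a signal intensity and a detection p-value for each of 25697 probes; the submitters' processing notes name GenomeStudio 2011.1. A deposited table of log2 values matched quantile-normalized log2 intensities without background correction (100% within 0.01) and served as an alternative.

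Intensities were background-corrected and quantile-normalized with neqc (limma 3.58.1, R 4.3.3, offset 16). Of the probes, 23978 had 1 gene symbol and 1719 none. For a gene with several probes, the brightest detected one was kept; detected means a p-value below 0.05 on both arrays in 1 or more groups. Limma fitted group means to all 14 arrays at once (7 residual and 2.5 prior degrees of freedom). In simulated data for EpiSCs minus serum ESCs over 10481 genes, 32.8%, 76.1% and 100% of changes of 0.5, 1 and 2 log2 were recovered. Only 67, 67 and 66 genes were changed by these sizes, far fewer than the 6832 called in the data. The recovery rates therefore need not hold for this comparison.

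The 31 gene lists held 464 genes, of which 373 were tested; among those not tested here were Tfcp2l1, Nr0b1, T, Cer1, Epcam, Gata4, Sox1, Pax6 and Elf5. Named were list members, the 20 largest changes per direction seen on both EpiSC arrays, the 12 genes per direction farthest apart between the EpiSC arrays, and 10 per direction called opposite to EpiLCs. The comparison, members and lists were chosen with earlier results of these data known. The alternatives with another reference group were chosen after seeing the data.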

Additional observations from a re-analysis of the deposited data

Results flagged for a closer look

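The 20 genes below, 10 per direction, were taken from the 243 and 278 genes that left serum ESCs in opposite directions in EpiSCs and EpiLCs. They were ranked by the smaller of both changes. A call in the direct limma comparison of EpiSCs with EpiLCs, in which the shared serum arrays cancel, was a condition of the choice. The directions and adjusted p-values below therefore describe these genes and are no further test of them. Higher in EpiSCs than in EpiLCs were Eif2s3y by 7.08 log2, Gbp2b by 6.07 and Pga5 by 4.39; their probes were undetected in EpiLCs, so these values depend on background signal, and the bounds were 6.07, 5.12 and 3.48 log2. Also higher were Glrx by 5.21, Cap1 by 4.82, Rbm45 by 4.51, Prxl2a by 4.46, Irgm2 by 3.82, Gask1b by 3.21 and Txnip by 3.14, with adjusted p from 8.95e-10 (Glrx) to 2.54e-06 (Irgm2). Both EpiSC arrays lay above both serum arrays for each of these 10 genes.

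Lower in EpiSCs than in EpiLCs were Slpi (-6.84 log2), Zfp365 (-4.32), Pclaf (-3.37), Rps15a (-2.86), Agpat5 (-2.58) and Sephs1 (-2.32); Slpi was detected on 1 of the 2 EpiSC arrays. H3c7 (-4.36), D830030K20Rik (-3.90), Lix1 (-3.76) and Prr36 (-3.21) were undetected in EpiSCs, with bounds of -3.90, -3.31, -3.21 and -2.39 log2. Another probe of D830030K20Rik differed the other way from serum ESCs (0.52). The call of Sephs1 against serum ESCs was lost without serum replicate 1 (adjusted p 0.0572).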

How the results depend on the processing

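The counts of called genes of any size for EpiSCs minus serum ESCs stayed within 1.5 times under each alternative, those at 1 log2 or more did not, and the counts for EpiSCs minus EpiLCs fell by more under 2 alternatives. Leaving out 1 array at a time gave 5901 to 7164 calls against serum ESCs and 4805 to 6323 against EpiLCs. Against serum ESCs, fitting only the groups compared gave 5094 calls, and array weights by group gave 5060. Against EpiLCs, fitting only the groups compared gave 3403 calls (1692 higher, 1711 lower), and array weights gave 3612 (1838 higher, 1774 lower). The EpiSC arrays had a weight of 0.172 against 1.07 to 1.78. Without background correction, and with the authors' deposited log2 values, 836 genes were higher and 757 lower by at least 1 log2 against serum ESCs, 451 and 349 against EpiLCs, and 232 genes differed by over 1 log2 between the EpiSC arrays. The replicate numbers do not pair the samples (r of deviations -0.004): with the replicate block 6833 genes were called against serum ESCs, and 98.6% of the 6832 were called in the same direction. Of the 6832, 73.9% were called in the same direction when only the groups compared were fitted, and 71.3% with single-reporter serum ESCs as the reference, where 626 were called the opposite way. Median scaling moved the median change to -0.077 log2 and turned the balance of calls against serum ESCs to 3164 higher and 3835 lower (1343 and 1454 at 1 log2 or more).

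Among named genes called in the main fit or under the alternative, 21 turned sign, each with the single-reporter reference. Genes called in neither fit were not counted. The 21 were Lin28a (2.85), Chac1 (1.20), Cdkn1b (1.01), Uhrf1 (0.84), Lss (0.65), Slpi (0.47), Agpat5 (0.41), Sall4 (0.35), Srebf2 (0.27), Prr36 (0.078), L1td1 (0.039), Cdkn1a (-0.10), Cap1 (-0.10), Igfbp5 (-0.11), Fosb (-0.24), Gata6 (-0.25), Rbm45 (-0.25), Junb (-0.46), Gask1b (-1.13), Col4a1 (-1.57) and Mmp2 (-1.68). The cause was not tested. Calls lost when only EpiSC and serum arrays were fitted included Dppa4 (adjusted p 0.0569), Dppa5a (0.109), Tex19.1 (0.129), Grem1 (0.0615), Gata2 (0.0593) and Peg3 (0.0756). With array weights they included Sall4 (0.0861), Mixl1 (0.0792), Jak1 (0.0949) and H2-K1 (0.0547).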

Other observations

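Probes of a gene did not always give the same change. Of 2537 genes with at least 2 detected probes, 100 (3.94%) had probes whose EpiSC minus serum changes differed by over 2 log2, and 141 (5.56%) had probes called in opposite directions. Zfp330, a zinc-finger gene chosen after its values were seen, had 1 probe lower by 7.33 log2 and another lower by 0.71.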
